A study of Mus musculus with 6 samples.

Results

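The genes described here are 8 genes of the Hippo, YAP and TEAD pathway in mouse induced pluripotent stem cells (iPSCs): the target genes Ccn1, Ccn2, Ankrd1 and Amotl2, the coactivator gene Yap1, the DNA-binding partner genes Tead1 and Tead2, and the kinase gene Lats2. Every probe set whose array annotation names 1 of them alone was taken, which gave 19 of the 45037 probe sets analysed, for 8 of the 18193 genes that have a probe set of their own. The set was put together because Ccn1 and Ccn2 were higher and other matrix genes lower in the same comparison of clones. Their values are therefore given as a description with no test, and tests are given only for genes outside the set.

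The cells came from 6 iPSC clones, each grown from 1 picked colony and measured on 1 array. Clones 4, 5 and 6 form the (+)/(+) group, which received 3i in the reprogramming phase and again in the maintenance phase. Clones 1, 2 and 3 form the (−)/(+) group, which received 3i only after colonies had been picked. 3i is a mixture of the GSK3 inhibitor CHIR99021, the MEK inhibitor PD184352 and the FGF receptor inhibitor SU5402. All clones were made from embryonic fibroblasts of Nanog-GFP-IRES-Puro transgenic mice with retroviruses carrying 4 reprogramming factors and dsRed, and were kept with LIF and serum on mitomycin-C-treated SNL feeder cells. Because both groups were in 3i when RNA was taken, the comparison asks what differs with the use of 3i in the earlier phase. Whether feeder cells were removed before RNA was taken is not given in the sources used here, nor is the order of hybridisation, so a difference of handling and the group cannot be told apart.

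Yap1 encodes a coactivator that has no DNA-binding domain of its own and reaches its target genes through the TEAD factors. When the Hippo pathway is active, the Mst kinases switch on the Lats kinases, which phosphorylate YAP and its relative TAZ and keep them out of the nucleus. When it is inactive, YAP enters the nucleus and raises genes of adhesion, matrix and growth, some of which, such as Lats2 and Amotl2, encode inhibitors of YAP. In the mouse preimplantation embryo YAP and TEAD4 act in the outer cells that form the trophectoderm, while Lats kinases hold YAP back in the inner cells.

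Values are MAS 5.0 signal intensities on a linear scale, with every array scaled to one trimmed mean, and differences are (+)/(+) minus (−)/(+) on the log2(signal + 16) scale, which understates differences of low signals. The median signal of all probe sets was 64.1 to 70.2 in the (+)/(+) clones and 74.3 to 75.7 in the (−)/(+) clones, and the median difference over 11177 tested genes was −0.05. Of these genes, 1.55% were higher and 1.41% lower in the (+)/(+) clones at an adjusted p under 0.05 in limma, while 10.5% were higher and 15.8% lower with no overlap between the groups. An unadjusted p under 0.05 in limma was far more common, with 4778 of the 22518 probe sets tested. The 16 pluripotency markers checked were measured in every clone with a lowest signal of 567, and 0 of the 16 passed the test (4 at an unadjusted p under 0.05). Without overlap 2 were higher and 0 lower. The 3 brightest were Dppa5a (log2 difference 0.13, limma adjusted p = 0.386), Tdgf1 (0.10, adjusted p = 0.490) and Nanog (0.23, adjusted p = 0.129). The summed signal of 18 fibroblast markers was 22413, 22229 and 24052 in the (+)/(+) clones 4, 5 and 6, against 29526, 37150 and 40520 in the (−)/(+) clones 1, 2 and 3. Most of this sum came from Vim, S100a6 and, named after their values were seen, Lgals1 and S100a4. Vim alone had means of 7012 in (+)/(+) and 12897 in (−)/(+) clones, while the groups of Lgals1 overlapped. Of 14 of the 18 markers tested, 4 were lower (Col1a2, Vim, S100a6 and Col3a1) and 0 higher at an adjusted p under 0.05, while Fap, Lum and Twist2, named after their values were seen, were under 80 in every clone. Without overlap 9 of the 14 were lower and 0 higher, and by sign 13 differences were negative and 1 positive. Of the 18, 6 are also matrix genes, whose direction was used to choose the 8 genes, Col1a2 and Col3a1 among them. Without these 6, a choice made after seeing the data, 2 of 10 were lower (Vim and S100a6), and the sum was 21402, 20846 and 22692 in the (+)/(+) clones, against 27208, 34511 and 37251 in the (−)/(+) clones. Measured as the median log2 shift of its genes from the median of the 6 clones, clone 4 was raised along chromosome 8 (0.41) and clone 1 along chromosome 11 (0.27), where none of the 8 genes lies. On the 6 chromosomes that hold the 8 genes, the shift of any clone was between −0.03 and 0.04.

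Ccn1 (Cyr61) encodes a secreted matricellular protein that binds integrins and is among the most used readouts of YAP. Its brightest probe set, 1416039_x_at, had 2236, 2343 and 2071 in the (+)/(+) clones, against 1601, 1600 and 1591 in the (−)/(+) clones. All 3 (+)/(+) clones were above all 3 (−)/(+) clones, which lay within 1 narrow band. The means were 2217 ± 137 in (+)/(+) and 1597 ± 5.63 in (−)/(+) clones (SD, n = 3 each), a ratio of 1.39 and a log2 difference of 0.47 (SE 0.10). A suffix of x_at marks probe sets with probes that can bind transcripts of other genes as well, so the second probe set, 1438133_a_at, bears on the same reading. It had 1201, 1124 and 1033 in the (+)/(+) clones, against 863, 746 and 999 in the (−)/(+) clones, again without overlap, with a log2 difference of 0.37 (SE 0.14). The last pair of Ccn1 probe sets, both designed on the same expressed sequence tag, overlapped between the groups. Of these, 1442340_x_at had 379 to 540 in (+)/(+) and 359 to 455 in (−)/(+) clones, and 1457823_at had 377 to 494 in (+)/(+) and 285 to 494 in (−)/(+) clones. With the mean of all 4 probe sets, the log2 difference of Ccn1 was 0.27.

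Ccn2 (Ctgf) encodes the related matricellular protein known as connective tissue growth factor, and it has 1 probe set, 1416953_at. Its signal was 5908, 6490 and 6894 in the (+)/(+) clones, against 3821, 3584 and 4535 in the (−)/(+) clones. The lowest (+)/(+) clone was above the highest (−)/(+) clone. Means were 6431 ± 496 in (+)/(+) and 3980 ± 495 in (−)/(+) clones (SD, n = 3 each), a ratio of 1.62 and a log2 difference of 0.69 (SE 0.11). Within each group the clones did not follow the order of Ccn1: clone 6 was the highest (+)/(+) clone for Ccn2 and the lowest for Ccn1.

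Ankrd1 encodes an ankyrin repeat protein of the nucleus and of the muscle sarcomere, and is also a widely used YAP target. It ran in the opposite direction. Its brighter probe set, 1420992_at, had 147, 193 and 149 in the (+)/(+) clones, against 303, 240 and 375 in the (−)/(+) clones. Means were 163 ± 26.0 in (+)/(+) and 306 ± 67.8 in (−)/(+) clones (SD, n = 3 each), a ratio of 0.533 and a log2 difference of −0.83 (SE 0.20). The other probe set, 1420991_at, comes from the same source sequence and is not a separate check. It had 144, 188 and 162 in (+)/(+) clones and 314, 202 and 303 in (−)/(+) clones, with a difference of −0.66 (SE 0.20). In both probe sets the groups were apart, with clone 5 the highest of its group and clone 2 the lowest of its own.

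Amotl2 encodes a member of the angiomotin family, junction proteins that bind YAP and hold it outside the nucleus. Its 1 probe set, 1452387_a_at, had 1119, 1192 and 1112 in the (+)/(+) clones, against 860, 1123 and 1094 in the (−)/(+) clones. The groups overlapped, and only clone 1 was apart from the others. The log2 difference was 0.16 (SE 0.13), and without clone 1 it was 0.04.

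**Figure D1:**
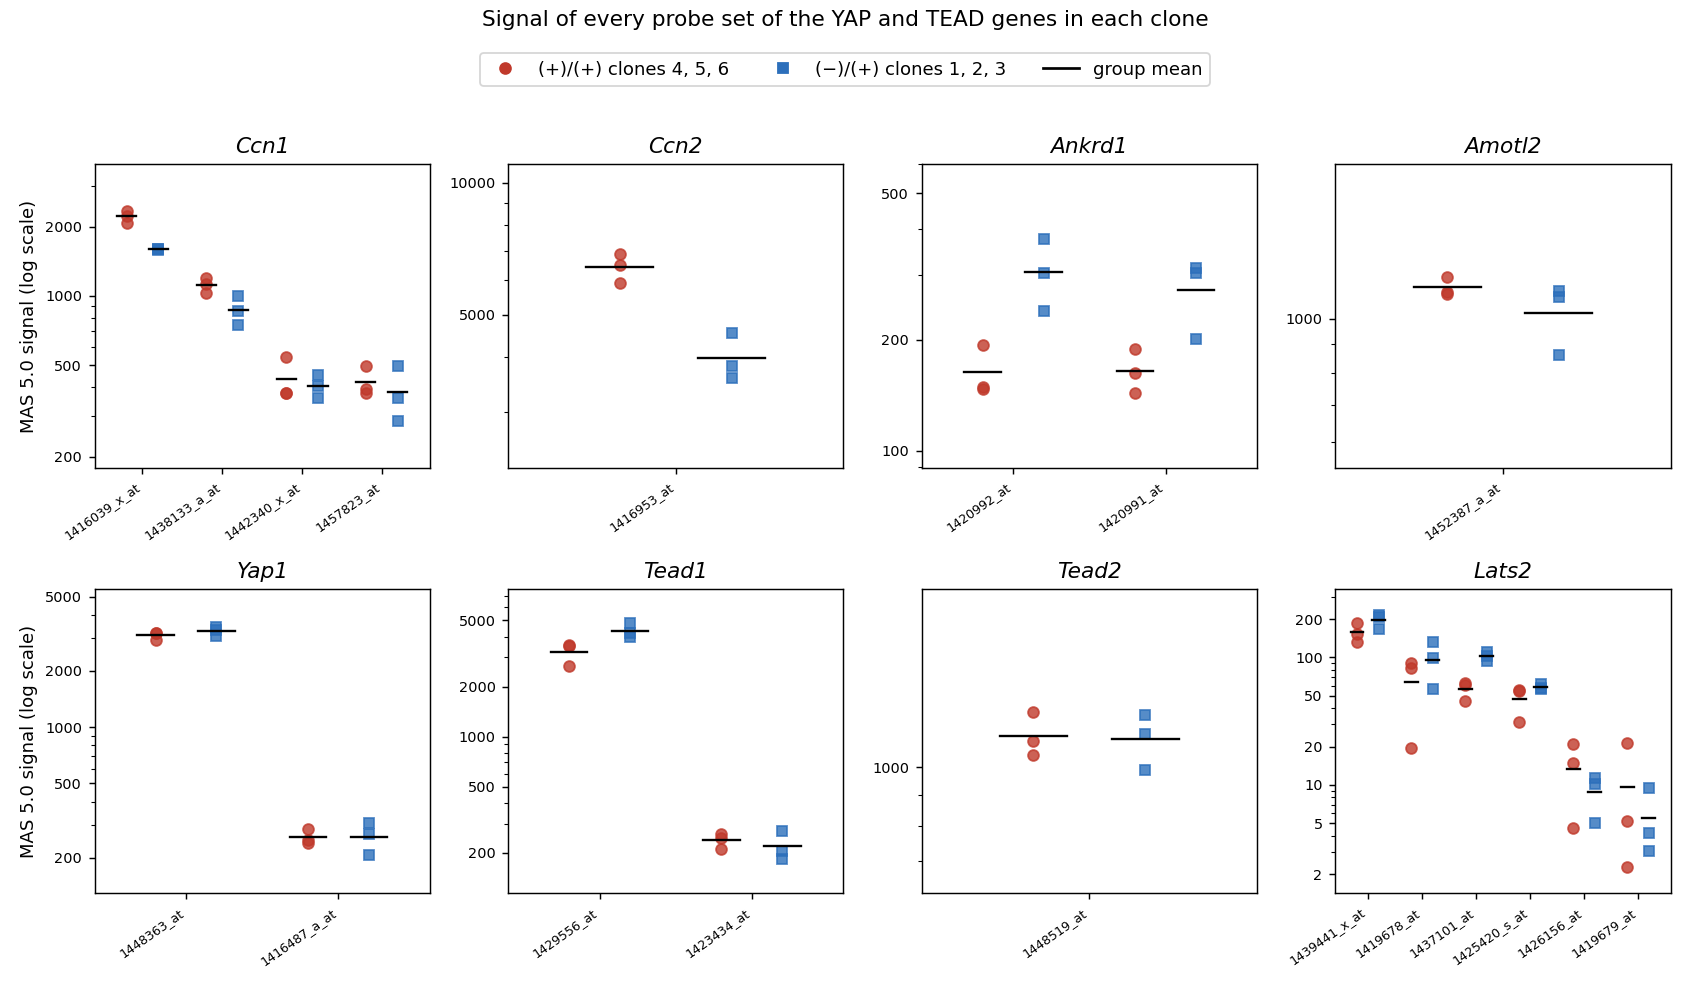
MAS 5.0 signal (log axis) of every probe set of the 8 genes, with 1 point per clone, (+)/(+) clones left of (−)/(+) clones, and lines for group means. In the leftmost, brightest probe set of each gene the (+)/(+) clones lie above the (−)/(+) clones for Ccn1 and Ccn2, below them for Ankrd1 and Tead1, and overlap them for the other 4 genes.

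The windows around the start sites of 3 of these 4 target genes are shown because TEAD factors recognise a short word, GGAATG, which on the other strand reads CATTCC. Each window runs from 250 bases before the start to 50 after it, 5′ to 3′ on the gene's strand, from RefSeq on GRCm38.p6, with the word in capitals.
Ccn1, chr3:145649936-145650235, minus strand: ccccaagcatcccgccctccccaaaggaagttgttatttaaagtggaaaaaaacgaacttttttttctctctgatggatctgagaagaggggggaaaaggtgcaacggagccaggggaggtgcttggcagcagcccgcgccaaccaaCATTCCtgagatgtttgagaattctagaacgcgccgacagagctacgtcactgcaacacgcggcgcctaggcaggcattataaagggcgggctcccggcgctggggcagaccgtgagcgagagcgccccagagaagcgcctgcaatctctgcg
Ankrd1, chr19:36119795-36120094, minus strand: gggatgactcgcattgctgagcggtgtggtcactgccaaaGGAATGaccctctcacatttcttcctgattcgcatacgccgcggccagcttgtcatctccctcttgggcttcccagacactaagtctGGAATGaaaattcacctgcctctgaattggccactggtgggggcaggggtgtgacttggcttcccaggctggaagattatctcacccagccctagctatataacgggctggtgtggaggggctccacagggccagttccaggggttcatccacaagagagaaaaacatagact
Amotl2, chr9:102717554-102717853, plus strand: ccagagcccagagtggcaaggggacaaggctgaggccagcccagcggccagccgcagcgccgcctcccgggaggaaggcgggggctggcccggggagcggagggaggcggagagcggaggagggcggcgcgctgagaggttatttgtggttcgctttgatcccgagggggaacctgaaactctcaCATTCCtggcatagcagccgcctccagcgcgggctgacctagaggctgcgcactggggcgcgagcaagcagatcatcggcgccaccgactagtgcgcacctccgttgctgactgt
In Ccn1 the word lies at bases −103 to −98 from the start, in Amotl2 at −65 to −60, and in Ankrd1 at −210 to −205 and again at −123 to −118. The whole Amotl2 window, from 102717554, lies inside the span of the gene, which begins at 102717091. Its positions are thus counted from a start within the gene and not from the gene's 5′ end. Of the 8 genes, 6 have a window, while Ccn2 and Tead1 do not, and 5 of those 6 hold the word at least once on either strand. The other 2 of the 5 are Yap1 (−141 to −136) and Lats2 (bases 5 to 10 after 1 of its 2 starts), and Tead2 has none. The starts used for Yap1 and Lats2 also lie inside the spans of these genes, so their positions are likewise not counted from the gene's 5′ end. Among 32851 windows of this length over all genes, 14.7% hold the word and 1.36% hold it more than once. Neither the AP-1 word TGANTCA (7.81% of all windows, either strand) nor a CArG box of the serum response factor (1.63%) occurs in the windows of the 6 genes. The windows that hold the TEAD word thus include a gene that was higher in the (+)/(+) clones (Ccn1), a gene that was lower (Ankrd1) and a gene whose groups overlapped (Amotl2). A match to these letters is a description of the sequence and not a measured binding site.

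Lats2 encodes one of the kinases that phosphorylate YAP, and is itself a YAP target. Its signals were low. The brightest probe set, 1439441_x_at, had 133, 153 and 185 in the (+)/(+) clones, against 167, 209 and 214 in the (−)/(+) clones, with means of 157 ± 26.4 in (+)/(+) and 197 ± 25.7 in (−)/(+) clones (SD, n = 3 each) and a log2 difference of −0.30 (SE 0.18). These groups overlapped. A dimmer one, 1437101_at, had 63.1, 45.7 and 61.2 in (+)/(+) clones and 93.9, 111 and 102 in (−)/(+) clones without overlap, a difference of −0.71 (SE 0.21). In 1419678_at the signal of clone 6 was 19.4, while the other (+)/(+) clones had 83.3 and 90.3 and the (−)/(+) clones had 56.7 to 132. The last 3 Lats2 probe sets were below the filter and were not tested, among them 2 with signals under 22 in every clone. A probe set annotated to Lats2 together with its neighbour Xpo4 was left out (382 to 771 in (+)/(+), 497 to 570 in (−)/(+) clones).

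Yap1 was nearly level between the groups. The brighter of its probe sets, 1448363_at, had 3202, 3175 and 2927 in the (+)/(+) clones, against 3301, 3072 and 3422 in the (−)/(+) clones, with means of 3101 ± 152 in (+)/(+) and 3265 ± 178 in (−)/(+) clones (SD, n = 3 each). Clones 4 and 5 lay inside the range of the (−)/(+) clones. The log2 difference was −0.07 (SE 0.10), and it was 0.085 when arrays were scaled to a common median, a scaling that moved the median of all tested genes by 0.15. The other probe set, 1416487_a_at, also overlapped, with 240.0 to 285 in (+)/(+) and 207 to 305 in (−)/(+) clones.

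Tead1 and Tead2 encode TEAD factors, which bind the word above and carry YAP to DNA. The bright probe set of Tead1, 1429556_at, had 2677, 3549 and 3528 in the (+)/(+) clones, against 3953, 4222 and 4817 in the (−)/(+) clones. Every (+)/(+) clone was below every (−)/(+) clone. Means were 3251 ± 497 in (+)/(+) and 4331 ± 442 in (−)/(+) clones (SD, n = 3 each), a ratio of 0.751 and a log2 difference of −0.42 (SE 0.13). Its dimmer probe set, 1423434_at, did not share this order, with 245, 261 and 211 in the (+)/(+) clones against 269, 183 and 205 in the (−)/(+) clones and a difference of 0.13 (SE 0.18). Tead2 (1448519_at) overlapped, with 1048, 1103 and 1232 in (+)/(+) clones and 989, 1219 and 1134 in (−)/(+) clones, a difference of 0.02 (SE 0.13).

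Counted over the 16 member probe sets that passed the filter, 3 were higher and 4 were lower in the (+)/(+) clones without overlap, and 9 overlapped. Of all 22518 probe sets tested, 10.5% were higher and 16.6% lower without overlap, and 1.35% were higher and 1.77% lower at an adjusted p under 0.05. The comparison chose these genes, so nothing is read from the counts. The 3 that did not pass are all of Lats2. The 4 target genes thus ran 3 ways in the same clones: Ccn1 and Ccn2 higher in (+)/(+), Ankrd1 lower in (+)/(+), and Amotl2 with overlapping groups. By position the genes are spread over the genome (GRCm38.p6): Ccn1 at chr3:145646971-145649985, Ccn2 at chr10:24595442-24598683, Ankrd1 at chr19:36111965-36119844, Amotl2 at chr9:102717091-102733418, Yap1 at chr9:7931999-8004638, Tead1 at chr7:112679356-112906784, Tead2 at chr7:45215792-45233468 and Lats2 at chr14:57689662-57746212. The nearest genes on each side of them with a mean signal above 500 (10 a side, 17 in all for Yap1) had a median shift of −0.16 to 0.11 in any clone. The neighbours of Ccn2 shifted by 0.004, 0.081 and 0.050 in (+)/(+) clones 4, 5 and 6. In (−)/(+) clones 1, 2 and 3 they shifted by −0.022, −0.127 and −0.103, so they were higher in the (+)/(+) clones, as Ccn2 was. Neighbours of Ankrd1, Yap1, Tead1 and Lats2 were also higher in the (+)/(+) clones without overlap, narrowly for Tead1 and Lats2, while these genes themselves were not. The part of such shifts in the differences was not tested.

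Of the other genes of the pathway, those encoding TAZ and the remaining TEAD and Vgll cofactors came first. Wwtr1, the gene of TAZ, had 1294, 2004 and 1772 in the (+)/(+) clones, against 1956, 1787 and 1821 in the (−)/(+) clones, with a log2 difference of −0.16 (SE 0.15, limma adjusted p = 0.592). Its dimmer probe sets had differences of 0.07 (SE 0.17, adjusted p = 0.861) and 0.08 (SE 0.18, adjusted p = 0.837). With the mean of its 3 probe sets the difference was −0.005. Of 5 such genes tested outside the set, 0 passed in limma (1 at an unadjusted p under 0.05). Without overlap 2 were lower, beside 15.8% of all tested genes, and the median difference was −0.28. Tead3 had 149, 201 and 179 in (+)/(+) and 247, 249 and 277 in (−)/(+) clones (−0.52, SE 0.17, adjusted p = 0.114). Vgll4, whose protein competes with YAP for TEAD, had a difference of −0.11 (SE 0.18, adjusted p = 0.761). By the brightest probe set of each gene all 5 differences were below 0. However, 2 of the 5 were above 0 when arrays were scaled to a common median, which put the median of all tested genes at 0.10. The sign for Wwtr1 also depended on the probe set.

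Tead4, named after its values were seen because of its part in the trophectoderm, was dim, with 81.9, 74.1 and 70.6 in the (+)/(+) clones, against 59.7, 133 and 105 in the (−)/(+) clones (adjusted p = 0.569). Its (+)/(+) clones lay inside the range of the (−)/(+) clones.

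The kinases and upstream regulators of the Hippo pathway were next. Of 28 genes listed, 26 have a probe set of their own and 21 outside the set were tested. None of these 21 passed in limma (0 higher and 0 lower, with 8 at an unadjusted p under 0.05). Without overlap 9 were lower and 0 higher, beside 15.8% lower and 10.5% higher of all tested genes. The median log2 difference was −0.19. Under scaling to a common median, 10 of the 21 were positive and 11 negative with a median of −0.04, while the median of all tested genes was 0.10. The list median was thus below that of all tested genes, as it was without that scaling (−0.19 against −0.05). The balance of signs in the list depended on the scaling. Stk4, the gene of the kinase Mst1 that activates the Lats kinases, had 3266, 3483 and 3468 in the (+)/(+) clones, against 3507, 3540 and 3487 in the (−)/(+) clones (−0.04, SE 0.09, adjusted p = 0.810). Mob1a, which encodes an activator of the Lats kinases, had 2480, 2454 and 2263 in (+)/(+) and 2405, 1126 and 2072 in (−)/(+) clones (0.43, SE 0.23, adjusted p = 0.310), with clone 2 far below the rest. Mob1a lies on chromosome 6, where the neighbours of Gadd45a, given below, shifted by −0.64 and −0.52 in clones 2 and 3. Whether that segment reaches Mob1a was not tested. The tight junction gene Tjp1 had 4471, 4527 and 4495 in (+)/(+) and 4843, 4872 and 4424 in (−)/(+) clones (−0.07, SE 0.09, adjusted p = 0.700).

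Another 3 regulators were chosen after their values were seen. Amotl1, the angiomotin relative of Amotl2, had a log2 difference of −0.45 (SE 0.14, adjusted p = 0.0930), Nf2, which encodes the membrane scaffold Merlin, −0.41 (SE 0.13, adjusted p = 0.113), and Ptpn14, which encodes a phosphatase that binds YAP, −0.50 (SE 0.17, adjusted p = 0.135). Each was lower in all 3 (+)/(+) clones than in any (−)/(+) clone, and none passed the test. Nf2 lies on chromosome 11, along which clone 1 was raised by 0.27, and was highest in clone 1 (907, against 738 and 835 in clones 2 and 3). The part of this shift in the difference of Nf2 was not tested, and without clone 1 its limma adjusted p was 0.180.

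**Figure D2:**
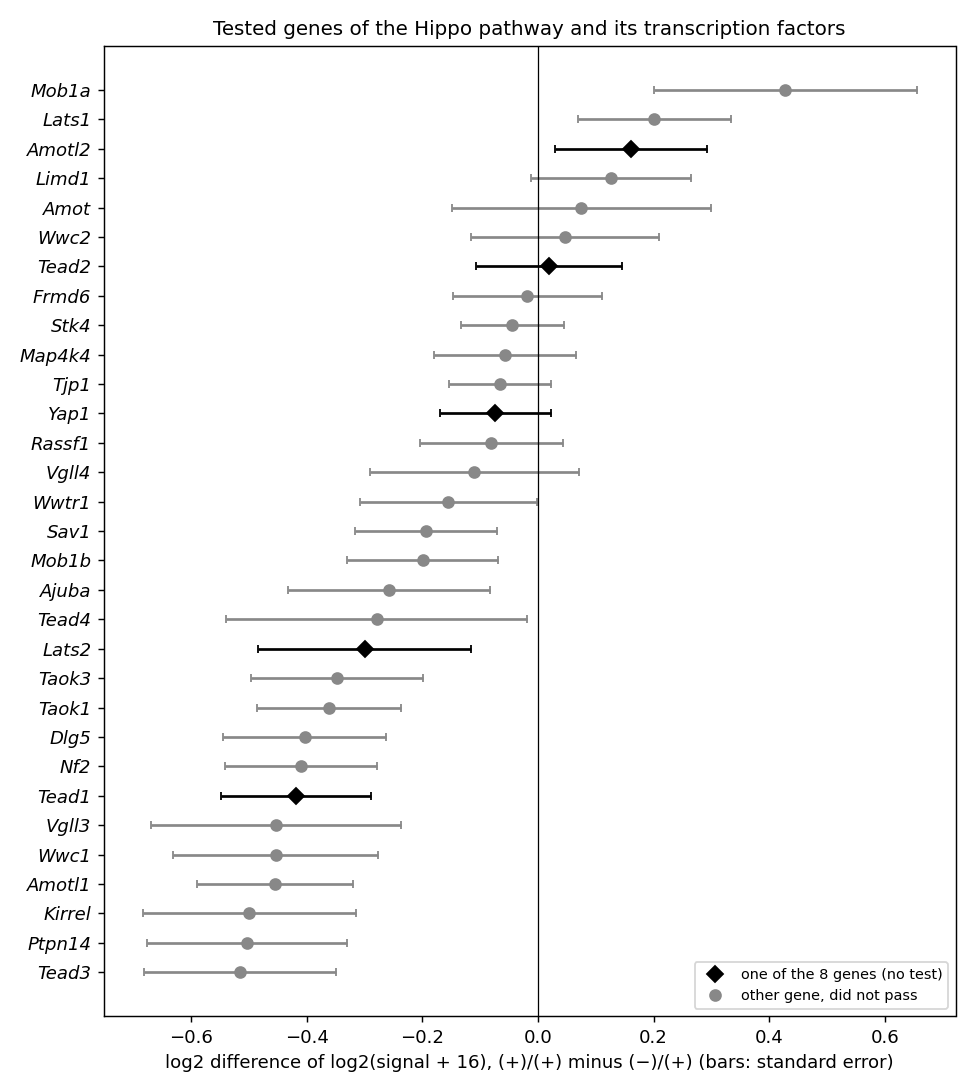
Log2 difference, (+)/(+) minus (−)/(+), of the cofactor and Hippo regulator genes tested, 1 point per gene with its standard error. Most points lie a little below 0 (median −0.28 for the cofactors and −0.19 for the regulators outside the 8 genes), and none outside the 8 genes passed the test.

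A wider signature of 22 YAP and TAZ targets was then counted. Of its 19 tested genes, 14 lie outside the 8, and of these 2 rose and 1 fell in the (+)/(+) clones in limma, against 2.96% of all tested genes called in either direction. With 9 at an unadjusted p under 0.05, 2 were higher and 7 lower without overlap, beside 10.5% higher and 15.8% lower of all tested genes. The median log2 difference was −0.54, beside −0.05 over all tested genes. In sign, 3 of the 14 were positive and 11 negative. The balance of calls depended on the clones kept: without clones 1 and 4 it was 0 higher and 4 lower, without clone 1 it was 1 higher and 4 lower, and without clone 3, 4, 5 or 6 it was 0 of each.

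Igfbp3, which encodes a secreted binding protein of insulin-like growth factors, rose. It had 746, 758 and 784 in the (+)/(+) clones, against 432, 216 and 478 in the (−)/(+) clones. The (+)/(+) clones were close together and all above the (−)/(+) clones. Means were 763 ± 19.5 in (+)/(+) and 375 ± 140 in (−)/(+) clones (SD, n = 3 each), a log2 difference of 1.07 (SE 0.24, adjusted p = 0.0462). A dimmer probe set of the gene had 397 to 422 in (+)/(+) and 152 to 329 in (−)/(+) clones, and did not pass (adjusted p = 0.133). Igfbp3 lies on chromosome 11, along which clone 1 was raised, and its neighbours shifted by −0.05, −0.11 and −0.11 in the (+)/(+) clones 4, 5 and 6 and by 0.16, 0.04 and 0.15 in the (−)/(+) clones 1, 2 and 3. Igfbp3 itself was higher in the (+)/(+) clones, and the part of this segment in its difference was not tested.

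Gadd45a, which encodes a stress protein of DNA repair and growth arrest, rose as well. It had 2785, 2071 and 2022 in the (+)/(+) clones, against 1300, 1714 and 1258 in the (−)/(+) clones, a log2 difference of 0.68 (SE 0.16, adjusted p = 0.0491). Its neighbours on chromosome 6 shifted by 0.12 to 0.16 in the (+)/(+) clones and by −0.03, −0.64 and −0.52 in the (−)/(+) clones 1, 2 and 3. Gadd45a itself was highest among the (−)/(+) clones in clone 2, and the part of this segment in its difference was not tested.

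Axl, which encodes a receptor tyrosine kinase, fell. It had 121, 149 and 132 in the (+)/(+) clones, against 247, 260 and 321 in the (−)/(+) clones, with means of 134 ± 14.1 in (+)/(+) and 276 ± 39.6 in (−)/(+) clones (SD, n = 3 each), a log2 difference of −0.96 (SE 0.17, adjusted p = 0.0203). Its second probe set was below the filter. Named after their values were seen, Nt5e (170, 103 and 103 in (+)/(+), 193, 397 and 284 in (−)/(+) clones, adjusted p = 0.0551), Asap1 (−0.60, adjusted p = 0.0623), Myof (−0.82, adjusted p = 0.0649), Dock5 (−0.58, adjusted p = 0.0789) and Ccdc80 (−0.89, adjusted p = 0.0850) had lower values in (+)/(+) clones without overlap but did not pass.

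The calls of Igfbp3, Gadd45a and Axl did not hold under many alternatives. Leaving out 1 clone, Igfbp3 was lost without clone 3, 4, 5 or 6 (adjusted p = 0.0533, 0.108, 0.113 and 0.166), Gadd45a without clone 1, 3, 4, 5 or 6 (0.0768, 0.157, 0.121, 0.0968 and 0.128) and Axl without clone 3, 4, 5 or 6 (0.0855, 0.0667, 0.0547 and 0.100). Over all alternatives the adjusted p ranged between 0.0203 and 0.249 for Igfbp3, between 0.0102 and 0.233 for Gadd45a, and between 0.00338 and 0.158 for Axl.

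**Figure D3:**
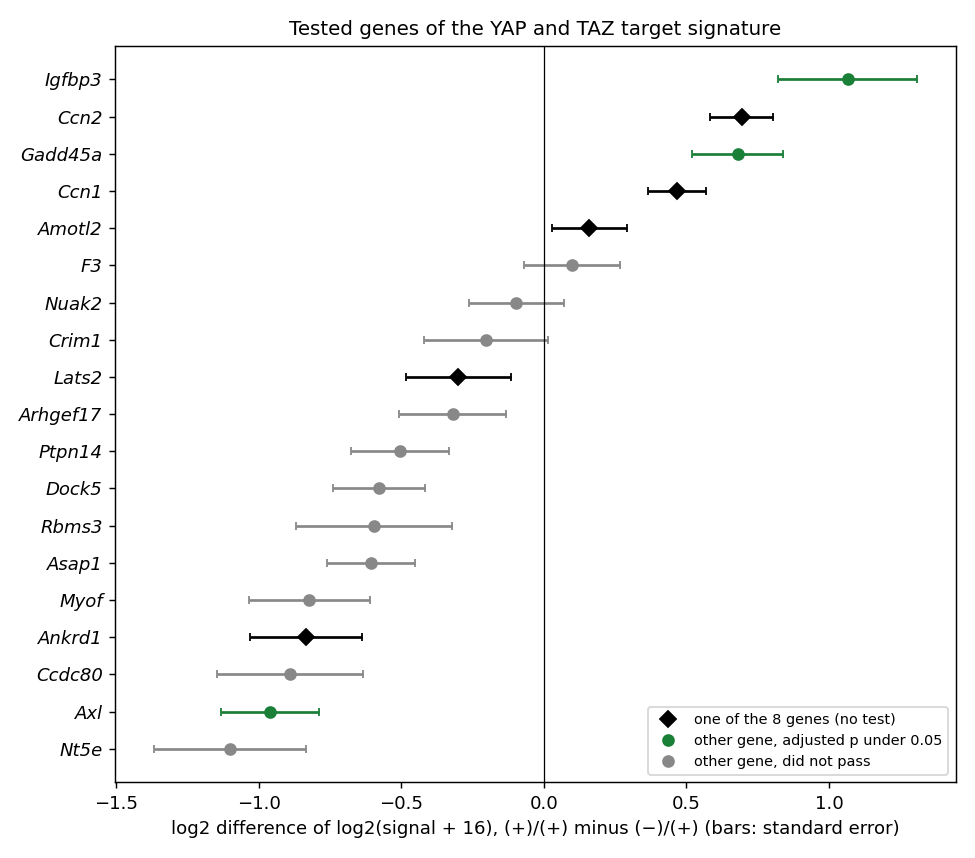
Log2 difference, (+)/(+) minus (−)/(+), with its standard error, of the tested genes of the YAP and TAZ target signature, in order of size. Igfbp3, Ccn2, Gadd45a and Ccn1 lie on the positive side (1.07, 0.69, 0.68 and 0.47), while Nt5e, Axl, Ccdc80 and Ankrd1 lie farthest on the negative side (−1.10, −0.96, −0.89 and −0.83).

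**Figure D4:**
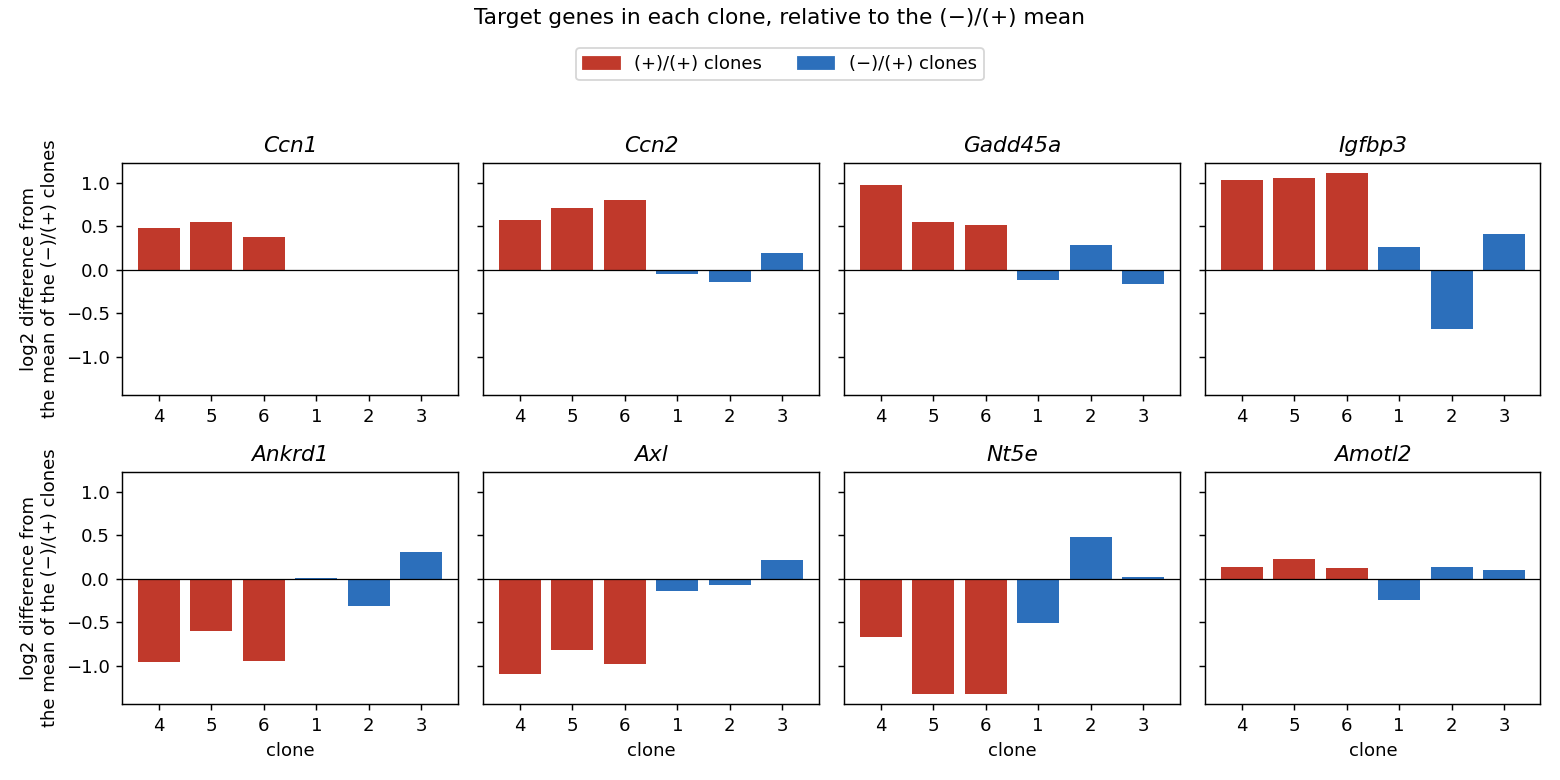
Difference of each clone from the mean of the (−)/(+) clones on the log2(signal + 16) scale, with (+)/(+) clones 4, 5 and 6 left of (−)/(+) clones 1, 2 and 3. Shown are 8 of the 19 tested genes of the target signature, a selection made with their values known. It does not show the balance of the signature, in which 3 of the 14 genes outside the set were positive and 11 negative. The (+)/(+) clones are above 0 for Ccn1, Ccn2, Gadd45a and Igfbp3 and below 0 for Ankrd1, Axl and Nt5e, and the (−)/(+) bars of Ccn1 are almost 0 because those clones hardly differ.

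Of the CCN family of matricellular proteins, Ccn1 and Ccn2 were tested along with Ccn4, and Ccn3, Ccn5 and Ccn6 were below the filter. Ccn4 (Wisp1), a gene first known as a Wnt target, had 125, 85.1 and 37.8 in the (+)/(+) clones, against 142, 64.8 and 225 in the (−)/(+) clones, with a log2 difference of −0.67 (SE 0.42, adjusted p = 0.390). Its groups overlapped widely.

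Many YAP targets also respond to serum response factor (SRF) and its MRTF coactivators, which follow the actin cytoskeleton. Of 18 SRF and MRTF targets tested, 1 fell and 0 rose in limma. At an unadjusted p under 0.05 there were 5, beside 4778 of all 22518 probe sets tested. Without overlap 5 were lower, beside 15.8% of all tested genes, and the median log2 difference was −0.15. Acta2, the smooth muscle actin gene, fell, with 241, 243 and 235 in the (+)/(+) clones against 363, 408 and 550 in the (−)/(+) clones (−0.81, SE 0.17, adjusted p = 0.0363). This call was lost after scaling to a common median (adjusted p = 0.0527), after quantile normalization (0.0632), and without clone 2, 3, 4, 5 or 6 (0.0602, 0.120, 0.0891, 0.0940 and 0.143), within a range of 0.00492 to 0.183 over all alternatives. Scaled to a common median, 9 of the 18 targets were positive and 9 negative, beside 7256 positive and 3920 negative of all tested genes.

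Of 8 genes of the trophectoderm, the lineage in which YAP and TEAD4 act in the embryo, 5 were tested and 0 passed in limma (3 at an unadjusted p under 0.05). Without overlap 3 were higher in (+)/(+) clones, beside 10.5% of all tested genes, and the median log2 difference was 0.45. The keratin gene Krt18 had 972, 674 and 571 in (+)/(+) and 522, 260 and 400 in (−)/(+) clones (0.90, SE 0.25, adjusted p = 0.0794), and Id2, which encodes an inhibitor of bHLH factors, had 772, 938 and 985 in (+)/(+) and 632, 616 and 699 in (−)/(+) clones (0.45, SE 0.13, adjusted p = 0.0920). The transcription factor gene Tfap2c had 2814 to 3945 in (+)/(+) and 2256 to 3822 in (−)/(+) clones (0.24, SE 0.19, adjusted p = 0.492). Scaled to a common median, 3 of the 5 were called higher. That scaling also raised the calls over all tested genes from 173 to 496 higher, and cut those lower from 158 to 82. Cdx2, the master regulator of the lineage and a target of TEAD4, was named after its values were seen and was below the filter, with 55.4, 5.40 and 39.9 in (+)/(+) and 69.7, 82.1 and 96.7 in (−)/(+) clones.

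The matrix genes against which Ccn1 and Ccn2 were set apart are given for reference only, since the choice used their direction. Of 28 tested, 11 were lower and 0 higher in the (+)/(+) clones at an adjusted p under 0.05, with a median log2 difference of −0.64. Col1a2, a chain of type I collagen, had 573 ± 114 in (+)/(+) and 1746 ± 330 in (−)/(+) clones (SD, n = 3 each), the metalloproteinase inhibitor gene Timp2 had 775 ± 72.4 in (+)/(+) and 1695 ± 324 in (−)/(+) clones, and its relative Timp3 had 154 ± 33.8 in (+)/(+) and 424 ± 84.3 in (−)/(+) clones. Ankrd1, Axl and Acta2 were lower in the same clones in which the fibroblast marker sum was lower, and Ccn1, Ccn2, Igfbp3 and Gadd45a were higher in those clones. In bulk RNA fewer cells of a type and less RNA per cell cannot be told apart, and the part of fibroblast or feeder RNA in these differences was not tested.

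The genes outside the set whose profile over the 6 clones was most like that of Ccn1, by the mean absolute difference of log2 values centred on each gene's mean, were Slc4a1 (0.023), Papola (0.047), Ncapg2 (0.047), Rnf146 (0.051) and Psmd5 (0.051). Closest to Ccn2 were Utp14b (0.049), Fbxo15 (0.053), Arid4a (0.055), Dnajb9 (0.062) and Colgalt2 (0.062). The distance between Ccn1 and Ccn2 was 0.149. The genes named here were picked as the closest of 11177 tested genes over only 6 clones. Their smaller distances therefore cannot show whether Ccn1 and Ccn2 run together.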

How the data were processed

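Affymetrix mouse expression arrays with 1 colour were hybridised with biotin-labelled RNA of undifferentiated iPSCs. The authors deposited linear MAS 5.0 signal intensity values, 1 for each probe set, in which all arrays share one trimmed mean. Presence calls were not used. Of 45101 probe sets, 64 controls were left out, and 34945 of the others name 1 gene, 932 several and 9160 none. After log2(signal + 16), the 22518 probe sets whose mean lay above the overall median entered a limma fit (version 3.58.1, R 4.3.3, lmFit followed by eBayes with its trend option) with group as the sole term, and p-values were adjusted over all of them by Benjamini-Hochberg. The brightest probe set stands for a gene. The 8 genes, the gene lists and the tests were chosen with earlier results of these data known. From each list, up to 4 called genes are named or, with none called, the 3 brightest, and the 5 genes nearest in profile to Ccn1 and to Ccn2. A gene outside this rule is marked as chosen once its values had been seen. Clones are the replicates, 3 in each group. Each SE comes from this fit with its moderated variance, while each SD is that of the 3 clones themselves. Other settings tried were quantile normalization, a common median, a pseudocount of 1 or 64, dropping the filter, requiring a mean signal above 500, eBayes with no trend, arrayWeights, averaging a gene's probe sets, the methods' t-test, and leaving out clones. Promoter windows and positions came from RefSeq (GRCm38.p6). Plots were made in Python 3.11.15 using matplotlib 3.10.9.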

Additional observations from a re-analysis of the deposited data

How the results depend on the processing

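Leaving out 1 clone, the log2 difference was 0.43 to 0.51 for Ccn1, 0.62 to 0.79 for Ccn2, −0.99 to −0.68 for Ankrd1, 0.04 to 0.23 for Amotl2, −0.12 to −0.03 for Yap1, −0.49 to −0.29 for Tead1, −0.06 to 0.09 for Tead2 and −0.41 to −0.20 for Lats2. Scaling to a common median moved Ccn1 to 0.62, Ccn2 to 0.85, Amotl2 to 0.32, Yap1 to 0.085 and Tead2 to 0.18. It brought Tead1 to −0.26, Lats2 to −0.15 and Ankrd1 to −0.69. The mean of all probe sets gave 0.27 for Ccn1 and −0.15 for Tead1.

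The count of called probe sets, 703 (305 higher, 398 lower), was 1155 (917 higher, 238 lower) after scaling to a common median, 221 with no filter, 380 above a signal of 500, 265 with eBayes without trend, 2527 with arrayWeights, 1062 without clones 1 and 4, and 52 to 961 without 1 clone. The methods' t-test gave 3999 unadjusted and 1 after Benjamini-Hochberg adjustment.

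Called genes outside the 8 numbered 3 of the target signature. They were 1 after quantile normalization, 0 with no filter, 0 above a signal of 500, 1 with eBayes without trend, 8 with arrayWeights, 4 without clones 1 and 4 (0 higher, 4 lower), 0 with the mean of all probe sets, 8 and 0 by the methods' t-test before and after adjustment, and 0 to 5 without 1 clone. The SRF and MRTF targets had 1, which became 0 with quantile normalization, a common median, no filter, a signal above 500, eBayes without trend, the mean of all probe sets or the adjusted methods' t-test, 5 with arrayWeights, 2 without clones 1 and 4, 2 by the unadjusted methods' t-test, and 0 to 1 without 1 clone. The cofactors had 0, but 1 with arrayWeights and 1 by the unadjusted methods' t-test (0 to 0 without 1 clone), and the Hippo regulators 0, but 5 and 4 under the same settings (0 to 1 without 1 clone). The trophectoderm genes had 0, but 3 with a common median, 2 with arrayWeights, 1 without clones 1 and 4, 2 by the unadjusted methods' t-test, and 0 to 1 without 1 clone. The matrix genes had 11, and 6 with no filter, 4 above a signal of 500, 7 with eBayes without trend, 19 with arrayWeights, 5 with the mean of all probe sets, 17 and 0 by the methods' t-test before and after adjustment, and 1 to 15 without 1 clone. The fibroblast markers had 4, and 2 without those also on the matrix list, 1 with eBayes without trend, 7 with arrayWeights, 0 by the adjusted methods' t-test, and 1 to 5 without 1 clone. The pluripotency markers had 0, but 2 with a common median, 2 with arrayWeights, 3 without clones 1 and 4, 2 by the unadjusted methods' t-test, and 0 to 2 without 1 clone. The cause of these moves was not tested.

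No paired analysis was possible because the groups share no clone number. The limma p-values and the standard errors do not rest on the spread between 3 clones a group alone. The eBayes step draws the variance of each probe set towards that of probe sets of like signal. Dim probe sets such as those of Lats2 limit what a signal near background can show.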
